A study of Mus musculus with 18 samples.

Results

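Interferon-stimulated genes are switched on when a cell senses an interferon, and their level in a tissue is widely used as a readout of interferon signalling. A list of 45 such genes was followed in whole mouse ovaries. A gene was kept when at least 6 of the 18 libraries held 10 or more expected counts, and 44 of the 45 met this minimum; Mx1, a GTPase that blocks influenza virus, reached it in 1 library and was not tested. The same minimum was met by 17131 of the 55416 genes in the deposited tables. The 44 genes are a selection made with earlier results of these data known. Counts over them therefore describe these genes and not all interferon targets.

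The ovaries came from wild-type female Balb/c mice in 3 groups of 6, with 1 library per mouse. The group called OC+SM held mice of 40 weeks dosed orally with Samul-tang (SM, a decoction of herbs) at 2.5 g/kg. OC held mice of 40 weeks given distilled water orally, and YC mice of 8 weeks given distilled water. The aged groups were dosed 5 times a week for 4 weeks, and the protocol gives that schedule for them without repeating it for YC. The protocol describes injections of 5 IU pregnant mare serum gonadotropin and, 48 h later, 5 IU human chorionic gonadotropin, with ovaries taken 16 h after the last one, so every group was studied after induced ovulation and none in an unstimulated state. OC and OC+SM mice were housed apart within shared cages, and the sources used here do not tell which mice shared one. The labels name 1 strain and 1 tissue, and each library holds all the cells of an ovary.

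Interferons of type I act on the receptor made of Ifnar1 and Ifnar2, whose kinases Jak1 and Tyk2 lead to a complex that contains Stat2 and Irf9. That complex binds the interferon-stimulated response element in target promoters, while interferon gamma acts mainly through gamma-activated sequences and through Irf1. In the ovary the cycle of follicle rupture and corpus luteum formation brings in leukocytes, and leukocytes as well as ovarian cells respond to interferons.

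Promoter windows of 6 of the 12 genes with the smallest p between OC and YC are shown, because they contrast genes with and without the response element core near their start. The core was searched for as GAAA, any 2 bases, GAAA on both strands, and the gamma-activated core as TTCNNNGAA, which reads the same on both strands; matches could overlap and each was counted. Windows run from 250 bases before to 50 bases after a RefSeq start on the build GRCm38.p6, written 5′ to 3′ on the gene's strand. Capitals mark the response element core in Rsad2 (chr12:26456403-26456702, minus strand), Irgm2 (chr11:58214727-58215026, plus strand), Gbp7 (chr3:142530086-142530385, plus strand) and Gbp3 (chr3:142559794-142560093, plus strand, with 2 overlapping matches). In Irf1 (chr11:53769764-53770063, plus strand) they mark the gamma-activated core, and Xaf1 (chr11:72301379-72301678, plus strand) has no match to either.
Rsad2: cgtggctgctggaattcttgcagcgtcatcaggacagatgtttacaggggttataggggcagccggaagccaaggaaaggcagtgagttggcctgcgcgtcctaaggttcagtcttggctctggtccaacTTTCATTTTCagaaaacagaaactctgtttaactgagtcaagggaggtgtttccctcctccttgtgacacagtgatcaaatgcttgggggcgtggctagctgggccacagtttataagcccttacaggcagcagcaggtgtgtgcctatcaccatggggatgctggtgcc
Irgm2: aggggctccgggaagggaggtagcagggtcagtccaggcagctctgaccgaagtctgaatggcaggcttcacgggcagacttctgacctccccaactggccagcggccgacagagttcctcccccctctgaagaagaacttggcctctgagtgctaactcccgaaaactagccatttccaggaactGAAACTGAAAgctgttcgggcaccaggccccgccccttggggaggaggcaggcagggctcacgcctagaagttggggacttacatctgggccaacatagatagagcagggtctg
Gbp7: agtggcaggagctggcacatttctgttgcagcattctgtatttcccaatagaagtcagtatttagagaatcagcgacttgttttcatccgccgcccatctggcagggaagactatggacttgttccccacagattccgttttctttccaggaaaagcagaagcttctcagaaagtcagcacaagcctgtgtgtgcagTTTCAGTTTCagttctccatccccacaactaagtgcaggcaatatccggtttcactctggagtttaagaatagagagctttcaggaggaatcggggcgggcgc
Gbp3: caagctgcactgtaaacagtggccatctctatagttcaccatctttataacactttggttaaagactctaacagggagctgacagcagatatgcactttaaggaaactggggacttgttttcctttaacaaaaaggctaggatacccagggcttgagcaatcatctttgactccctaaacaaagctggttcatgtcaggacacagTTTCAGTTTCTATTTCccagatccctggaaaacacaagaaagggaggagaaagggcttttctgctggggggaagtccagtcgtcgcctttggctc
Irf1: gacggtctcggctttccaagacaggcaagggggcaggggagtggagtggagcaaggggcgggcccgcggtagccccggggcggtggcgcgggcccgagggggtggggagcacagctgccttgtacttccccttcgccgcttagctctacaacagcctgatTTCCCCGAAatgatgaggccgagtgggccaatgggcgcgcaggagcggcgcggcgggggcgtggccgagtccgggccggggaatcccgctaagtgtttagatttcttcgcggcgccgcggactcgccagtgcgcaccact
Xaf1: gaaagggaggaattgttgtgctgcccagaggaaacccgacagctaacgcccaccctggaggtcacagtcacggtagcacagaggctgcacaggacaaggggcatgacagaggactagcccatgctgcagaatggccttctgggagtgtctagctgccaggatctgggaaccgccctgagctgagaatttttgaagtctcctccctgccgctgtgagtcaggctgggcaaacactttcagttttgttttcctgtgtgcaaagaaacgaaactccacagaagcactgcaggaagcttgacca

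The response element core stood in the windows of 17 of the 34 tested genes that the RefSeq promoter table holds (50%), against 3.99% of 27025 genes in that table. The gamma-activated core stood in 12 of the 34 (35.3%), against 9.55% of all genes. The genes were selected as interferon targets, so these shares describe the list. Among members higher in OC than in YC (defined below), 7 of 13 held the response element core, against 10 of 21 members that were not called. The core began 120 bases before the start in Rsad2, 64 in Irgm2, 53 in Gbp7, and 45 and 39 in Gbp3, and in Rsad2, Gbp7 and Gbp3 it reads on the opposite strand. Of the 26 matches in these 34 genes, 19 (73.1%) began between 150 and 20 bases before the start, against 42.3% of the 1210 matches in all windows. A match in these letters is a description and was not tested as a binding site.

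**Figure D1:**
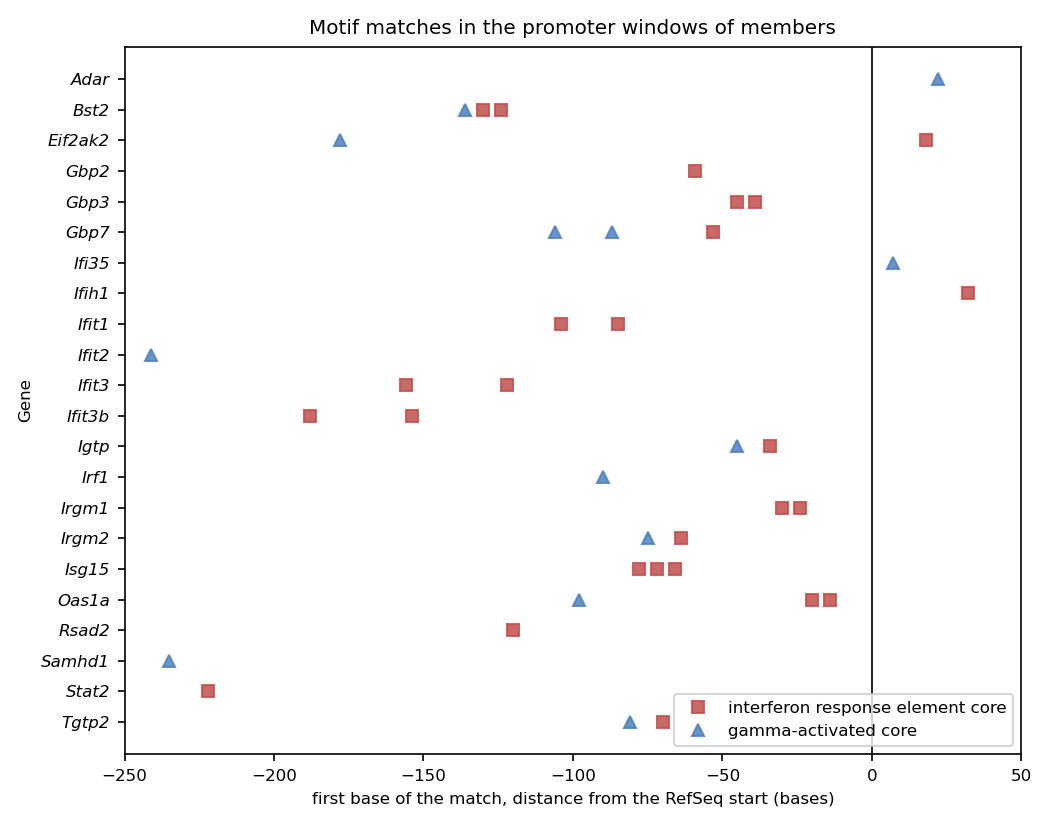
Position of each match to the response element core (squares) and the gamma-activated core (triangles) in the promoter windows of the members that hold one, by distance in bases of its first base from the RefSeq start (vertical line at 0). Most squares lie to the left of the start, and Irgm2, Igtp, Tgtp2, Gbp7, Bst2, Oas1a and Eif2ak2 hold both motifs.

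Libraries held 14200718 to 20354251 expected counts in OC+SM, 11612284 to 13428424 in OC and 9049194 to 14147392 in YC, so every OC+SM library was deeper than every OC and every YC library. Levels are given as CPM, the expected counts as a share of the library total, scaled with TMM factors between 0.94 and 1.07. The libraries are 3′ tags, so CPM needs no division by transcript length. The ovarian identity of the libraries was plain, with the steroidogenic enzyme Cyp11a1 at 6710, 6260 and 4580 CPM on average in OC+SM, OC and YC. In whole ovaries, fewer cells of a type and less RNA per cell cannot be told apart.

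Aged ovaries had higher levels of many interferon-stimulated genes than young ovaries. In OC against YC, 16 of 44 members (36.4%) were higher at an adjusted p under 0.05 (edgeR quasi-likelihood test, Benjamini-Hochberg over 16959 genes), against 5.25% of all genes tested. No member was lower, against 6.03% of all genes. The list was chosen with earlier results of these data known, so these shares describe the list and are not independent support. At an unadjusted p under 0.05 there were 27 members, and the share of all genes at that level was not computed. The DESeq2 test called 23 members higher and 0 lower, against 1087 and 1165 of all 16959 genes. The log2 fold change was positive for 43 members and negative for 1, Ifit2, with a median of 0.46 over members and 0.01 over all genes, of which 51.2% were positive. Every OC library lay above every YC library for 8 members (18.2%), against 3.21% of all genes; these were Rsad2, Gbp7, Igtp, Irgm2, Irf1, Parp14, Xaf1 and Sp100. The number higher was 11 without OC 6 and 22 without OC 3, the extremes of leaving out 1 library at a time.

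**Figure D2:**
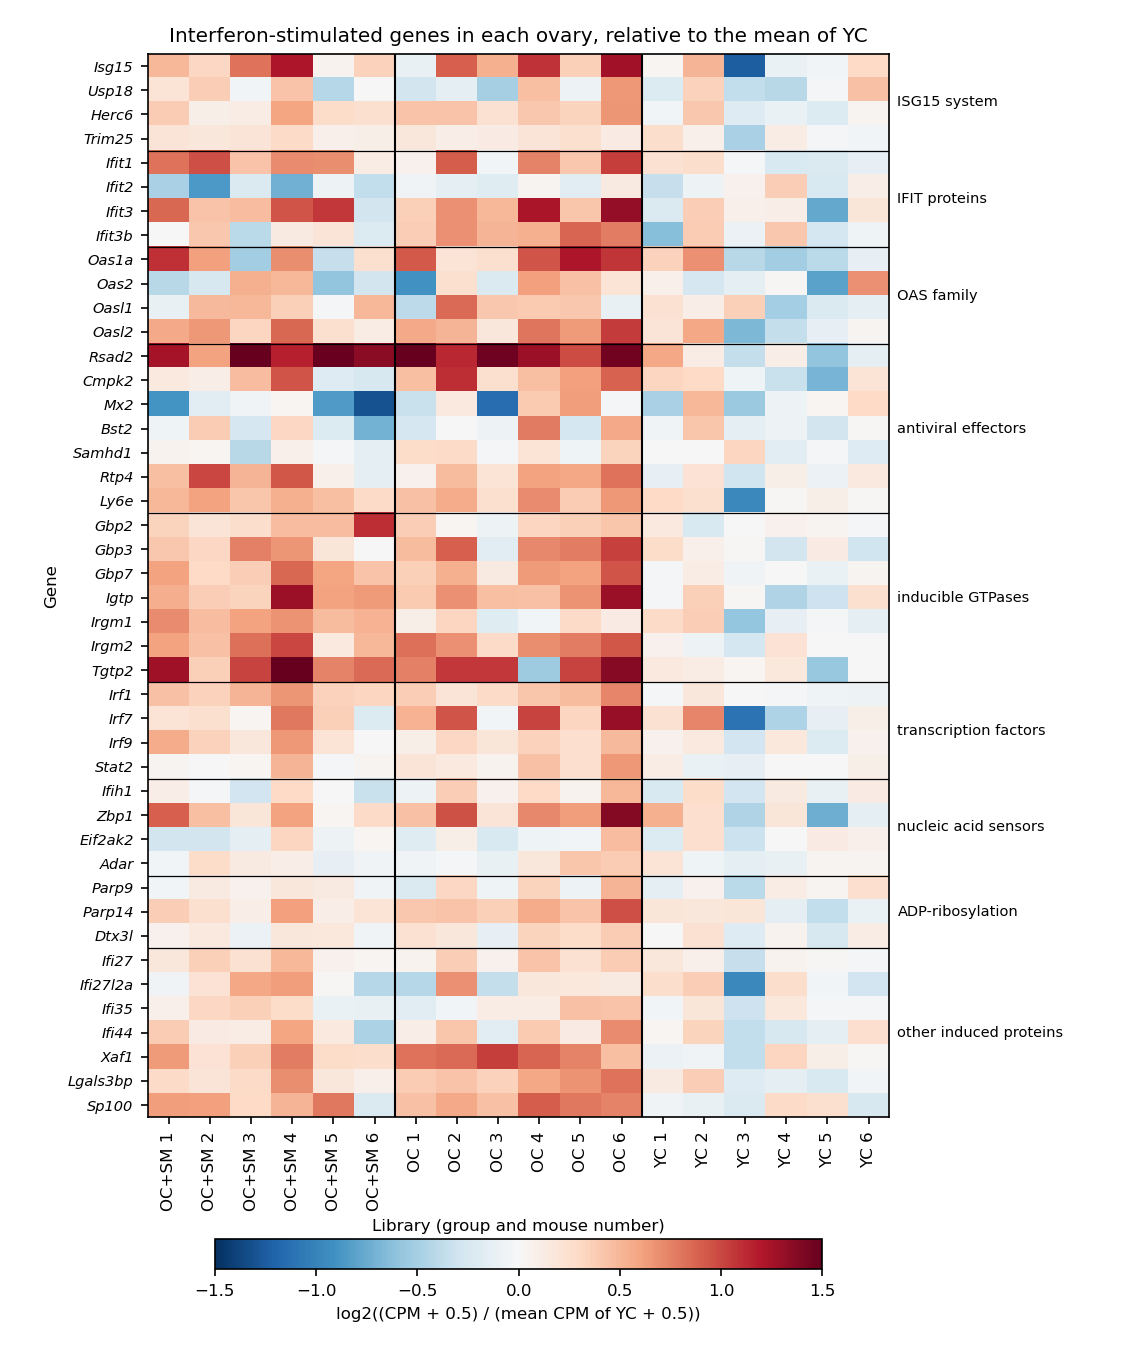
Level of 44 interferon-stimulated genes (rows, grouped by role) in each of 18 ovaries (columns; OC+SM, OC and YC from left to right), as log2((CPM + 0.5) / (mean YC CPM + 0.5)), with colours saturating beyond 1.5 in either direction. Rsad2 is red in all 12 aged ovaries, and the columns OC 6 and OC+SM 4 are red in most rows.

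The inducible GTPases, some of which bind and break open membranes around intracellular microbes, had the highest share of members called of any role. In OC, 5 of 7 were higher than in YC (Gbp3, Gbp7, Igtp, Irgm2 and Tgtp2), against 5.25% of all genes, with a median log2 fold change of 0.70. Gbp2 had 0.25 and Irgm1 0.11, neither called. The counts of the other roles in OC over YC, given below, stand beside the same 5.25% of all genes. In OC+SM against YC, 6 of 7 were higher, all but Gbp3, against 11.5% of all genes.

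Irgm2, an immunity-related GTPase, had a lowest, median and highest level of 8.24, 11.1 and 15.3 CPM in OC+SM, 9.12, 12.6 and 14.5 CPM in OC, and 6.07, 7.42 and 8.62 CPM in YC. All 6 OC ovaries lay above all 6 YC ovaries, and OC+SM 5 alone of its group fell inside the YC range. OC over YC was 0.75 ± 0.14 in log2 (SE), an adjusted p of 0.000819 in edgeR, and that of OC+SM over OC was -0.10 ± 0.14.

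Gbp7, a guanylate-binding protein and the most abundant of the 7, had 47.9, 55.8 and 71.3 CPM (lowest, median, highest) in OC+SM, 42.8, 58.1 and 75.3 CPM in OC, and 36.4, 38.8 and 42.3 CPM in YC. The YC ovaries were close together and none reached the lowest aged ovary, although OC 3 cleared the highest YC ovary by a small margin. OC was 1.48-fold YC (log2 0.56 ± 0.11, edgeR adjusted p = 0.00101), and OC+SM over OC was -0.02 ± 0.11 in log2.

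Gbp3, its neighbour on the chromosome, had 8.09, 10.4 and 14.0 CPM in OC+SM, 7.08, 13.8 and 16.9 CPM in OC, and 6.44, 8.34 and 9.84 CPM in YC, as lowest, median and highest. OC 3 held the low value and lay within the YC range, while the other 5 OC ovaries lay above it. Gbp3 differed by 0.70 ± 0.17 in log2 for OC over YC (edgeR adjusted p = 0.00925) and 0.43 ± 0.17 for OC+SM over YC (edgeR adjusted p = 0.0765).

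Igtp, also known as Irgm3 and adjacent to Irgm2, had 6.63, 7.90 and 13.3 CPM in OC+SM, 6.94, 7.88 and 13.4 CPM in OC, and 3.65, 5.16 and 6.73 CPM in YC. One ovary in each aged group, OC+SM 4 and OC 6, stood far above its 5 companions, and every OC ovary exceeded every YC ovary. Igtp differed by 0.75 ± 0.20 in log2 for OC over YC (edgeR adjusted p = 0.0138). Tgtp2, a T-cell-specific GTPase with a close copy in the genome, averaged 9.24 ± 3.20 CPM in OC+SM, 8.24 ± 3.00 CPM in OC and 4.20 ± 0.786 CPM in YC (SD, n = 6 each). Its log2 fold change of OC over YC was 0.97 ± 0.27 (edgeR adjusted p = 0.0223), although OC 4 had 2.74 CPM, inside the YC range; the call was lost without OC 2, OC 6 or YC 5, where the edgeR adjusted p lay between 0.0504 and 0.0546. It was also lost under 4 other settings (no filter, the replicate block and both limma fits), with log2 fold changes down to 0.57 and adjusted p of 0.0633 to 0.0797.

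Irgm1, which regulates the other immunity-related GTPases, followed another order. Its lowest, median and highest levels were 6.49, 7.01 and 7.81 CPM in OC+SM, 3.96, 4.96 and 5.84 CPM in OC, and 2.90, 4.31 and 6.07 CPM in YC. Every OC+SM ovary lay above every OC and every YC ovary, and the OC and YC ranges overlapped. Irgm1 had log2 fold changes of 0.51 ± 0.16 for OC+SM over OC, which missed the threshold (edgeR adjusted p = 0.0971; DESeq2 adjusted p = 0.0386), and 0.62 ± 0.16 for OC+SM over YC (edgeR adjusted p = 0.00614). Gbp2 likewise averaged 37.7 ± 9.93 CPM in OC+SM, 31.5 ± 4.31 CPM in OC and 26.4 ± 2.27 CPM in YC (SD, n = 6 each), with 57.3 CPM in OC+SM 6, and only OC+SM over YC was called (0.51 ± 0.13, edgeR adjusted p = 0.00645).

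Among the antiviral effectors 2 of 7 were higher in OC than in YC, Rsad2 and Ly6e. Rsad2 encodes viperin, which makes a nucleotide analog that stops viral polymerases, and it had the largest fold change of the 44. Rsad2 had 6.08, 10.2 and 13.8 CPM (lowest, median, highest) in OC+SM, 8.04, 10.7 and 14.7 CPM in OC, and 2.38, 3.79 and 5.99 CPM in YC. All 12 aged ovaries lay above all 6 YC ovaries, by a narrow margin in OC+SM 2. The fold was 2.8 in OC (log2 1.49 ± 0.21, edgeR adjusted p = 3.45e-05) and 2.66 in OC+SM (1.41 ± 0.20, edgeR adjusted p = 4.04e-05), each against YC.

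Cmpk2, a mitochondrial nucleotide kinase next to Rsad2 on chromosome 12, had 2.21 to 5.68 CPM in OC+SM, 3.27 to 6.42 CPM in OC and 1.47 to 3.51 CPM in YC. Its log2 fold change of OC over YC, 0.75 ± 0.25, was not called (edgeR adjusted p = 0.0547). Under 5 of 21 alternatives, DESeq2 among them, Cmpk2 was called. The other adjacent pairs of members in the RefSeq gene order were likewise unequal in calls in some cases: both members were higher in OC for Igtp and Irgm2 and for Gbp7 and Gbp3, and 1 member of the pair for Oasl2 and Oasl1, Parp14 and Dtx3l, and Ifit3 and Ifit2. Neither member was called by edgeR in Ifi27l2a and Ifi27 or in Dtx3l and Parp9. These 8 pairs held 15 of the 43 members in that gene table.

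Ly6e, a lipid-anchored surface protein that restricts virus entry, was the most abundant member, with 168, 192 and 210 CPM (lowest, median, highest) in OC+SM, 163, 195 and 225 CPM in OC, and 70.2, 142 and 169 CPM in YC. YC 3 held the low value, less than the next lowest YC ovary at 139 CPM, and 5 of 6 OC ovaries lay above every YC ovary. Ly6e differed by 0.51 ± 0.15 in log2 for OC over YC (edgeR adjusted p = 0.0346). It was between 0.46 and 0.51 with an edgeR adjusted p of 0.0585 to 0.0735 without OC 2, OC 4, OC 6, YC 4 or YC 6. The call was also lost without a filter and in a fit of the 12 libraries compared (edgeR adjusted p of 0.0852 to 0.095). The tetherin gene Bst2 (0.19), the nucleotide hydrolase Samhd1 (0.18), the receptor chaperone Rtp4 (0.49) and Mx2 (0.05) were not called by edgeR in OC against YC, although Rtp4 was called by DESeq2 and in a fit of the 12 libraries compared. Rtp4 was higher in OC+SM than in YC, by 0.54 ± 0.18 in log2 (edgeR adjusted p = 0.0346). Without OC+SM 2, OC+SM 3, OC+SM 4, YC 1, YC 3, YC 4 or YC 5 its edgeR adjusted p lay between 0.0511 and 0.0894. This call of Rtp4 was also lost under 5 other settings (no filter, the 12 libraries compared, thinning and both limma fits), and 9 of 21 alternatives kept it.

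In the system of Isg15, a ubiquitin-like protein attached to other proteins during the response, 1 of 4 members was higher in OC. This was Herc6, the main Isg15 ligase in mice, with 24.7, 27.9 and 35.4 CPM (lowest, median, highest) in OC+SM, 27.4, 31.2 and 37.3 CPM in OC, and 20.2, 22.2 and 31.0 CPM in YC. Only YC 2 reached into the OC range. Herc6 differed by 0.43 ± 0.11 in log2 for OC over YC (edgeR adjusted p = 0.00873) and by 0.29 ± 0.11 for OC+SM over YC (edgeR adjusted p = 0.0459). The second was lost without OC+SM 1, 4 or 5 or any YC mouse other than YC 2, at an edgeR adjusted p of 0.0606 to 0.12. It was also lost under 4 other settings (DESeq2 size factors, the 12 libraries compared and both limma fits), and 9 of 21 alternatives kept it.

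Isg15 itself varied widely between mice, at 10.3 to 23.6 CPM in OC+SM, 9.14 to 24.4 CPM in OC and 3.94 to 14.4 CPM in YC. The ranges overlapped, and its log2 fold change of OC over YC, 0.76 ± 0.28, was not called (edgeR adjusted p = 0.0957). The Isg15 protease Usp18 had 0.09 ± 0.25. Trim25, a ubiquitin ligase acting on the RNA sensor RIG-I and the most abundant of the 4, had 96.3, 104 and 112 CPM in OC+SM, 98.4, 101 and 108 CPM in OC, and 65.4, 92.9 and 110 CPM in YC (lowest, median, highest). The groups overlapped, the low value belonging to YC 3, and the log2 fold change of OC over YC was 0.16 ± 0.08 (edgeR adjusted p = 0.243).

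Ifit proteins bind viral RNA ends, and Oas enzymes make the oligoadenylates that activate RNase L. Of the 4 Ifit genes Ifit3 was higher in OC, and of the 4 Oas-family genes Oasl2. Ifit3 averaged 2.50 ± 0.896 CPM in OC+SM, 2.84 ± 1.02 CPM in OC and 1.42 ± 0.471 CPM in YC (SD, n = 6 each), and 5 of 6 OC ovaries lay above every YC ovary. Ifit3 differed by 1.01 ± 0.30 in log2 for OC over YC (edgeR adjusted p = 0.0306), and 0.85 to 0.95 with an edgeR adjusted p of 0.0626 to 0.084 without OC 4, OC 6, YC 1 or YC 5. That call was also lost with the replicate block and under limma on log2(TPM + 0.1). Ifit3 was also called in OC+SM over YC (0.83 ± 0.30, edgeR adjusted p = 0.0493). Leaving out any one OC+SM or YC library other than OC+SM 6 or YC 2 ended that call, at an edgeR adjusted p of 0.056 to 0.116. It was lost under 6 other settings as well, and only 5 of 21 alternatives kept it.

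Ifit3b, a copy of Ifit3 with which it may share reads, had 0.654, 1.10 and 1.51 CPM (lowest, median, highest) in OC+SM, 1.47, 1.83 and 2.29 CPM in OC, and 0.479, 0.943 and 1.52 CPM in YC. OC+SM 2 alone of its group exceeded the lowest OC ovary. Neither OC over YC (0.84 ± 0.29, edgeR adjusted p = 0.068) nor OC+SM over OC (-0.82 ± 0.29, edgeR adjusted p = 0.138) was called. Under 4 of 21 alternatives, DESeq2 and both limma fits among them, Ifit3b was called in OC over YC. Its expected counts ran from 5.6 to 28.5 per library, so its precision is low.

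Ifit1, the most abundant of the family, had 3.20, 5.07 and 6.19 CPM (lowest, median, highest) in OC+SM, 2.81, 4.62 and 6.53 CPM in OC, and 2.41, 2.76 and 3.62 CPM in YC. Of the aged ovaries, 5 of 6 in OC+SM and 4 of 6 in OC lay above every YC ovary. Ifit1 had log2 fold changes of 0.66 ± 0.22 for OC over YC, just short of the threshold (edgeR adjusted p = 0.0501), and 0.73 ± 0.21 for OC+SM over YC (edgeR adjusted p = 0.0149). OC over YC was called under 6 of 21 alternatives, the DESeq2 test among them. Ifit2 was the one member with a negative value in OC over YC, -0.07 ± 0.23 (edgeR adjusted p = 0.903), and its sign turned under 4 of 21 alternatives.

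Oasl2 had 11.5, 14.7 and 19.7 CPM in OC+SM, 12.0, 16.4 and 22.5 CPM in OC, and 6.50, 10.4 and 16.2 CPM in YC (lowest, median, highest). YC 1 and YC 2 reached into the OC range, and 3 of 6 OC ovaries lay above every YC ovary. Its log2 fold change of OC over YC was 0.66 ± 0.19 (edgeR adjusted p = 0.0215). The edgeR adjusted p was 0.0551 without OC 6, 0.0546 without YC 4 and 0.0525 without a filter on low counts. Oas1a had 1.13 ± 0.42, Oasl1 0.51 ± 0.36 and Oas2 0.19 ± 0.36, none of them called; group means of these 3 genes lay between 0.728 and 1.84 CPM, and the coefficient of variation of Oas1a was 57.9%, 35.7% and 57.6% in OC+SM, OC and YC.

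One of the 4 transcription factors, Irf1, was higher in OC. Irf1, which interferon gamma induces strongly, had 48.7, 51.1 and 61.4 CPM (lowest, median, highest) in OC+SM, 44.5, 51.0 and 64.5 CPM in OC, and 36.6, 38.3 and 43.5 CPM in YC. All 12 aged ovaries lay above all 6 YC ovaries. Irf1 had log2 fold changes of 0.43 ± 0.08 for OC over YC (edgeR adjusted p = 0.000941), 0.45 ± 0.08 for OC+SM over YC (edgeR adjusted p = 0.000364) and 0.02 ± 0.08 for OC+SM over OC.

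Irf7, which drives type I interferon genes, averaged 6.88 ± 1.82 CPM in OC+SM, 9.76 ± 3.41 CPM in OC and 5.61 ± 2.49 CPM in YC (SD, n = 6 each). In edgeR no comparison called Irf7, but OC over YC (0.79 ± 0.28, edgeR adjusted p = 0.0722) was called under 4 of 21 alternatives, DESeq2 among them. Stat2 and Irf9, partners in the type I complex, had log2 fold changes of 0.31 ± 0.10 and 0.29 ± 0.10 for OC over YC, with edgeR adjusted p of 0.0558 and 0.0823. Of 21 alternatives, 5 called Stat2 in OC over YC, DESeq2 among them, and 1 called Irf9. Irf9 was called in OC+SM over YC (0.34 ± 0.10, edgeR adjusted p = 0.0203), though not without OC+SM 1, OC+SM 4, YC 3 or YC 5, where the edgeR adjusted p was 0.0505 to 0.059.

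Of the sensors of nucleic acids and the RNA editor Adar, 1 of 4 was higher in OC. Zbp1, a sensor of Z-form nucleic acid that can start necroptosis, averaged 1.42 ± 0.43 CPM in OC+SM, 1.91 ± 0.729 CPM in OC and 0.913 ± 0.443 CPM in YC (SD, n = 6 each). Its call was the weakest of the 16, with a log2 fold change of 1.05 ± 0.34 (edgeR adjusted p = 0.0454). It was lost without OC 2, 4, 5 or 6 or any YC mouse other than YC 1, at an edgeR adjusted p of 0.0533 to 0.133. It was also lost without a filter on low counts (edgeR adjusted p = 0.0614). Eif2ak2, the kinase PKR that halts translation and the most abundant of the 4, had 16.5, 18.6 and 25.4 CPM in OC+SM, 17.1, 19.5 and 27.9 CPM in OC, and 16.0, 20.7 and 24.0 CPM in YC (lowest, median, highest). The 3 ranges of Eif2ak2 overlapped almost fully, and the log2 fold change of OC over YC was 0.03 ± 0.13. Ifih1, the RNA sensor MDA5, had 0.22 ± 0.13, and Adar 0.15 ± 0.11.

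Parp14, an ADP-ribosyltransferase, was the 1 of 3 genes of ADP-ribosylation higher in OC. It had 19.7, 21.5 and 28.5 CPM (lowest, median, highest) in OC+SM, 23.7, 24.9 and 36.4 CPM in OC, and 14.1, 18.9 and 21.0 CPM in YC. Every OC ovary lay above every YC ovary, with OC 6 far above the rest of its group. Parp14 differed by 0.56 ± 0.12 in log2 for OC over YC (edgeR adjusted p = 0.00283) and by -0.26 ± 0.12 for OC+SM over OC (edgeR adjusted p = 0.247). Its chromosomal neighbour Dtx3l, the ubiquitin ligase that works with Parp9, had 21.6, 24.8 and 25.9 CPM in OC+SM, 21.1, 27.5 and 30.0 CPM in OC, and 19.4, 23.3 and 27.0 CPM in YC. The Dtx3l ranges overlapped, and its log2 fold change of OC over YC, 0.22 ± 0.09, was not called (edgeR adjusted p = 0.135); Parp9 had 0.16 ± 0.12.

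Of the other induced proteins 3 of 7 were higher in OC, Xaf1, Lgals3bp and Sp100. Xaf1, an antagonist of the apoptosis inhibitor XIAP, had 81.5, 87.2 and 119 CPM (lowest, median, highest) in OC+SM, 95.9, 125 and 144 CPM in OC, and 53.9, 68.9 and 87.2 CPM in YC. All OC ovaries lay above all YC ovaries, and OC+SM lay between them, overlapping both. OC was 1.75-fold YC (log2 0.81 ± 0.11, edgeR adjusted p = 5.95e-05), and OC+SM over YC was 0.44 ± 0.11 (edgeR adjusted p = 0.00805).

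Lgals3bp, a secreted glycoprotein that binds galectins, had 23.4, 26.3 and 36.4 CPM in OC+SM, 28.2, 31.8 and 39.3 CPM in OC, and 18.9, 20.8 and 28.8 CPM in YC (lowest, median, highest). OC and YC overlapped only through OC 3 and YC 2. The log2 fold change of Lgals3bp was 0.56 ± 0.12 for OC over YC (edgeR adjusted p = 0.00198). Sp100, a component of nuclear bodies that silence foreign DNA, had 16.6, 28.9 and 33.9 CPM in OC+SM, 26.5, 31.0 and 37.0 CPM in OC, and 16.4, 18.4 and 23.9 CPM in YC. Every OC ovary lay above every YC ovary, and so did every OC+SM ovary except OC+SM 6. The log2 fold change of Sp100 was 0.67 ± 0.14 for OC over YC (edgeR adjusted p = 0.0032).

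Ifi27, a small membrane protein of mitochondria and the most abundant gene among these 7, had 136, 154 and 189 CPM in OC+SM, 139, 165 and 180 CPM in OC, and 105, 137 and 150 CPM in YC (lowest, median, highest). Its groups overlapped and its log2 fold change of OC over YC, 0.26 ± 0.09, was not called (edgeR adjusted p = 0.0608), though 7 of 21 alternatives called it, DESeq2 among them. Its neighbour Ifi27l2a had 0.11 ± 0.24, Ifi35 0.17 ± 0.13 and Ifi44 0.30 ± 0.17.

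**Figure D3:**
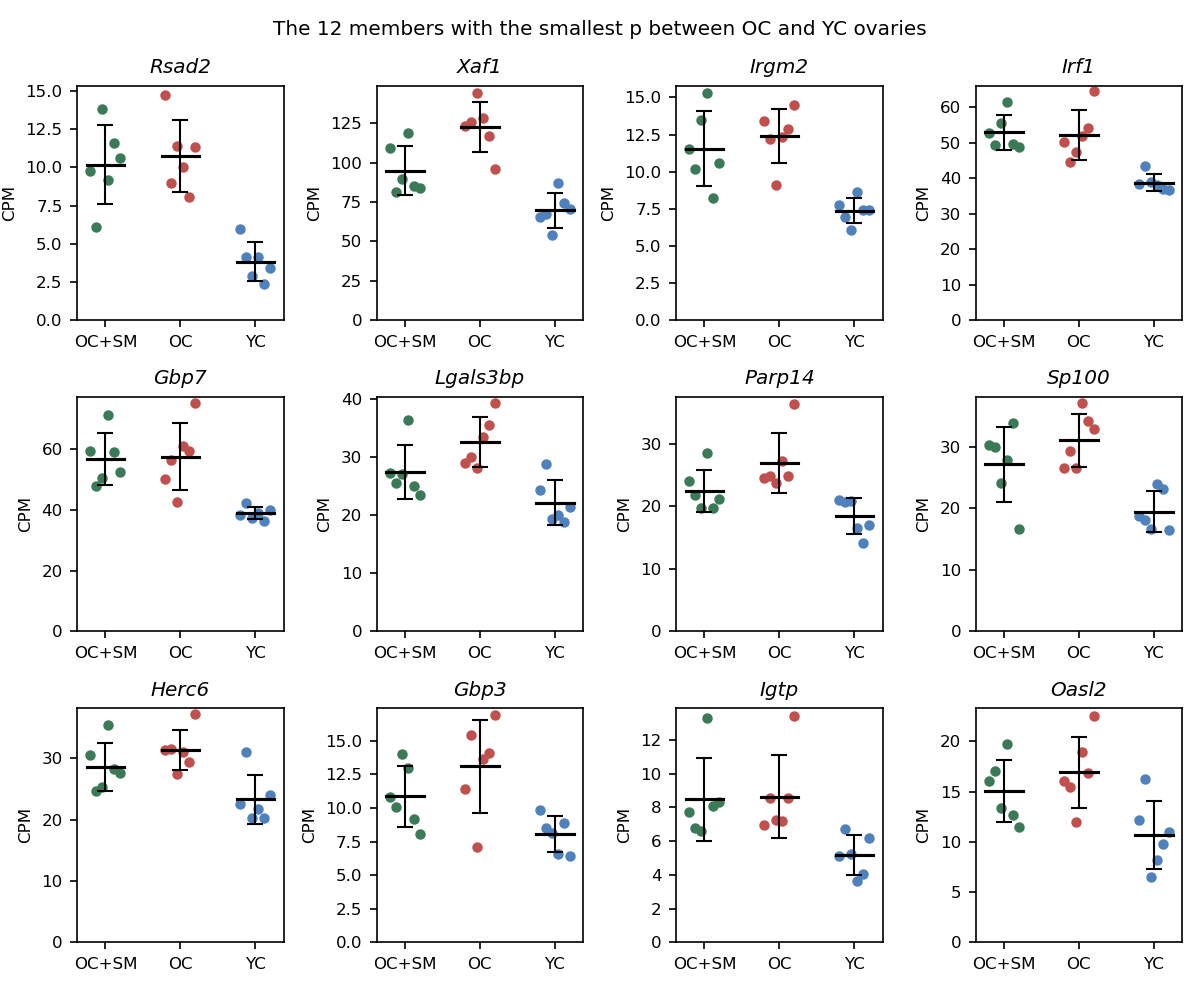
CPM of the 12 members with the smallest p between OC and YC, one point per ovary, with the mean and SD of 6 ovaries (black); OC+SM, OC and YC stand from left to right. In Rsad2 every aged ovary lies above 5.99 CPM, the highest YC value, while OC and YC share part of their range in Lgals3bp, Herc6, Gbp3 and Oasl2.

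No member passed the threshold between treated and untreated aged ovaries. For OC+SM over OC, edgeR called 0 of 44 members higher and 0 lower, against 0.548% and 0.489% of all genes. At an unadjusted p under 0.05 there were 6 (Xaf1, Irgm1, Ifit3b, Samhd1, Parp14 and Lgals3bp), against 16.9% of all genes tested. DESeq2 called 1 higher, Irgm1, and 1 lower, Xaf1, against 291 and 372 of all 16959 genes, so members were called about as often as all genes. The log2 fold change was negative for 34 members and positive for 10, with a median of -0.13 over members and 0.01 over all genes, of which 51.4% were positive. All OC+SM ovaries lay above all OC ovaries for 1 member, Irgm1 (2.27%), against 0.849% of all genes, and below them for 0 members, against 0.678%.

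For Xaf1, whose levels are given above, the log2 fold change of OC+SM over OC was -0.37 ± 0.11 (edgeR adjusted p = 0.0928). Without OC+SM 4, the ovary with the most Xaf1 in that group, it was -0.45 with an edgeR adjusted p of 0.0254, and DESeq2 gave -0.38 with an adjusted p of 0.035. Samhd1, which depletes the nucleotides needed by viruses, had 40.7, 54.5 and 57.3 CPM (lowest, median, highest) in OC+SM, 52.0, 64.2 and 68.3 CPM in OC, and 47.2, 53.7 and 68.1 CPM in YC. The 3 groups overlapped, and OC+SM over OC was -0.24 ± 0.09 in log2 (edgeR adjusted p = 0.19). Lgals3bp had -0.25 ± 0.11 (edgeR adjusted p = 0.253). A p that misses the threshold does not show that treated and untreated aged ovaries were alike.

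Against young ovaries the treated aged ovaries again stood higher. In OC+SM over YC, 16 of 44 members (36.4%) were higher, against 11.5% of all genes tested, and 0 were lower, against 10.9%. At an unadjusted p under 0.05 there were 24, without a computed share of all genes. DESeq2 called 17 members higher and 0 lower, against 2038 and 2082 of all 16959 genes. The median log2 fold change was 0.30 over members and 0.00 over all genes, with 37 members positive and 7 negative. Every OC+SM ovary lay above every YC ovary for 6 members (13.6%), against 4.85% of all genes; these were Rsad2, Gbp2, Gbp7, Irgm1, Tgtp2 and Irf1. The number higher was 11 without OC+SM 4 and 20 without OC+SM 6. This comparison shares the YC ovaries with OC over YC, so the counts are not independent, and members called in one and not in the other are not shown to differ.

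**Figure D4:**
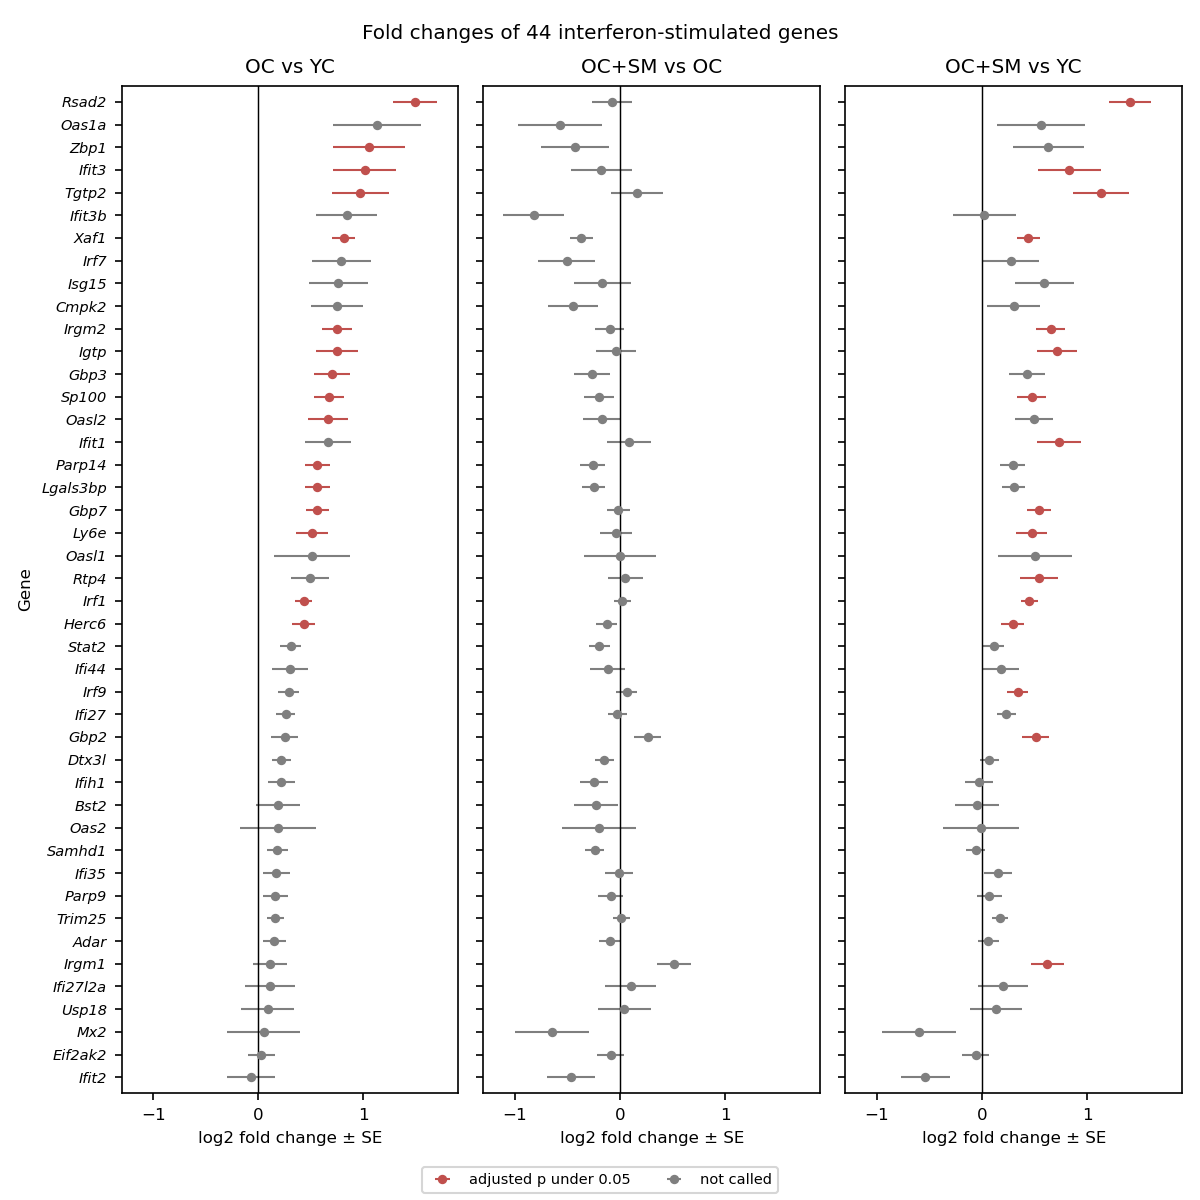
Log2 fold change with its SE for each of 44 members (rows, in the order of OC over YC), in OC over YC (left), OC+SM over OC (middle) and OC+SM over YC (right); red marks an edgeR adjusted p under 0.05. Rsad2 stands apart at 1.49 and 1.41 against YC, and no point is red in the middle panel.

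The level of the members differed between mice of a group, and the same mice were high or low for many members. The median over members of log2((CPM + 0.5) / (mean YC CPM + 0.5)) ran from 0.03 to 0.60 in OC+SM, from 0.13 to 0.66 in OC and from -0.24 to 0.22 in YC. OC+SM 4 was the highest of its group for 26 members (59.1%, against 16.6% of all genes), OC 6 for 27 (61.4%, against 19.9%) and YC 2 for 21 (47.7%, against 14.8%). At the other end, OC+SM 6 was the lowest of its group for 20 members (45.5%, against 22.6% of all genes), OC 3 for 23 (52.3%, against 17.2%) and YC 3 for 20 (45.5%, against 27.9%). Members are thus not separate replicates of a difference between groups.

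Xaf1 and Rsad2 did not follow this order in the untreated aged group. OC 6 had the lowest Xaf1 of OC, 95.9 CPM, and OC 3 the highest, 144 CPM. For Rsad2 the highest OC ovary was OC 1, with 14.7 CPM. Without OC 6, members higher in OC than in YC numbered 11; without OC 3, 22; without YC 2, 18; and without YC 3, which was the shallowest library, 15.

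The members also varied more between mice than most genes did. Their median coefficient of variation was 21.7% in OC+SM, 19.0% in OC and 17.7% in YC, against 16.9%, 14.6% and 14.5% over all genes tested. For the 33 members with a mean of at least 5 CPM it was 17.1%, 16.7% and 16.4%, against 12.6%, 10.6% and 10.7% for all genes at that level, in the same order of groups. In OC, Trim25 was the steadiest member at 3.7% and Mx2 one of the least steady at 45.6%.

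**Figure D5:**
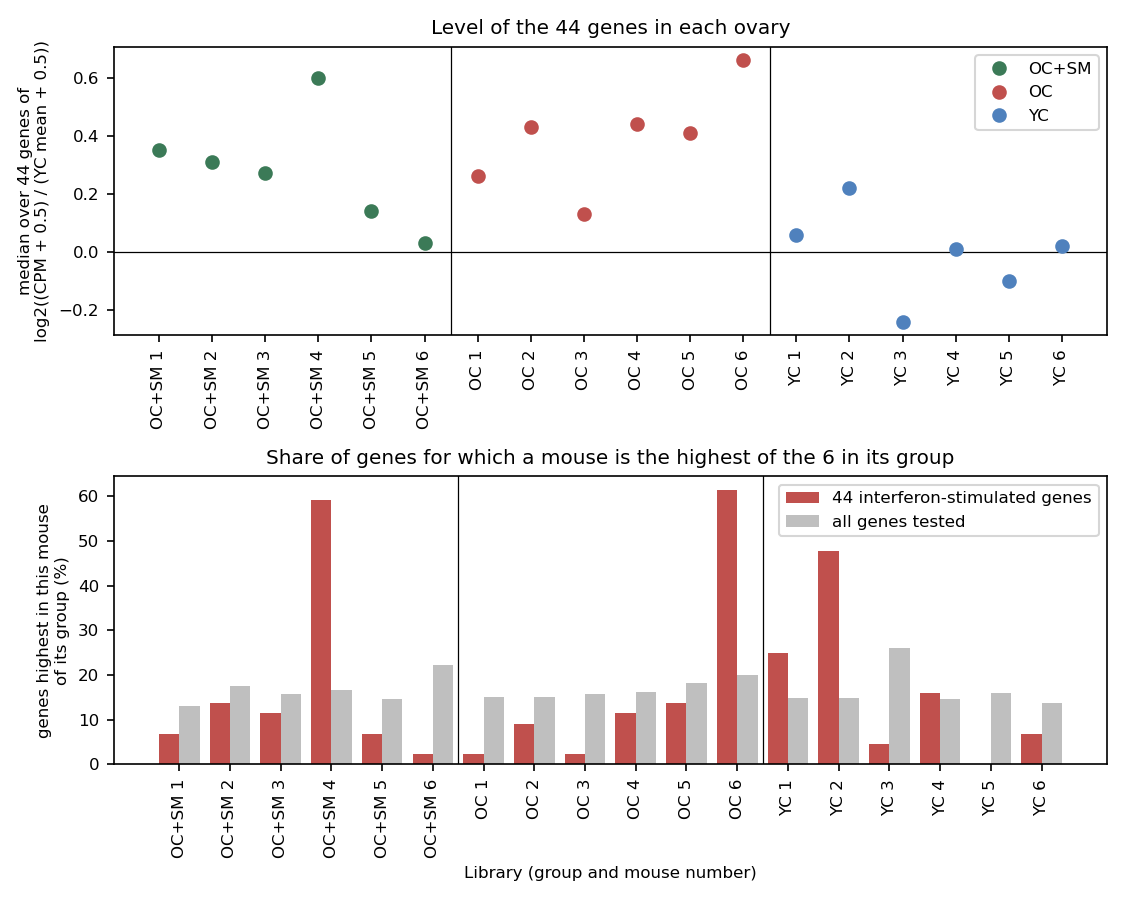
Top, the median over 44 members of log2((CPM + 0.5) / (mean YC CPM + 0.5)) in each ovary; bottom, the percent of members (red) and of all genes tested (grey) for which an ovary was the highest of the 6 in its group; OC+SM, OC and YC run from left to right. OC+SM 4 at 0.60, OC 6 at 0.66 and YC 2 at 0.22 top their groups.

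The 10 interferon genes examined, a part of the family, had few counts or none. None of the 10 was tested: Ifna1, Ifna2, Ifna4, Ifnb1, Ifne and Ifnz had 0 counts in all 18 libraries, which at a floor of 3 counts over all libraries together allows a level of up to 0.0119 CPM. Ifnk had 10 counts in all libraries together, Ifnl3 11, Ifng 2 and Ifnl2 1. Differences between groups were not detectable at these levels.

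Among receptors, kinases and signal transducers, 3 of 11 were higher in OC than in YC, where 5.25% of all genes were. Ifnar2, the ligand-binding chain of the type I receptor, had 141, 147 and 171 CPM (lowest, median, highest) in OC+SM, 132, 149 and 154 CPM in OC, and 86.4, 107 and 116 CPM in YC, a log2 fold change of 0.49 ± 0.07 for OC over YC (edgeR adjusted p = 3.2e-05). Il10rb, shared by the receptors of interferon lambda and interleukins, averaged 65.0 ± 4.60, 54.8 ± 6.54 and 34.1 ± 3.62 CPM in OC+SM, OC and YC, a log2 fold change of 0.68 ± 0.08 for OC over YC (edgeR adjusted p = 7.17e-06). Both were also higher in OC+SM than in YC, at 0.53 ± 0.07 and 0.93 ± 0.08.

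Stat3 was higher in OC (0.47 ± 0.13, edgeR adjusted p = 0.0194). Jak1, the most abundant kinase of this list, had -0.15 ± 0.06 and was not called (edgeR adjusted p = 0.142).

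Of 14 tested sensors and adaptors, 3 were higher in OC than in YC, against 5.25% of all genes. They were the RNA sensor Tlr3 (0.59 ± 0.14), its adaptor Ticam1 (0.61 ± 0.13) and the DNA sensor Aim2 (0.70 ± 0.23). Their edgeR adjusted p were 0.00555, 0.00331 and 0.046. Against YC, OC+SM had Mavs (0.34), Tlr3 (0.44) and Ticam1 (0.40) higher, against 11.5% of all genes. Of 5 tested Irf genes outside the members none was called in OC over YC, with 1 at an unadjusted p under 0.05, and Irf2 was lower in OC+SM than in YC (-0.26 ± 0.08, edgeR adjusted p = 0.0151).

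Of 13 genes that restrain the pathway or clear its nucleic acid triggers, 1 was higher in OC, near the 5.25% of all genes. It was Rnaseh2c, a subunit of a nuclease for RNA-DNA hybrids (0.33 ± 0.08, edgeR adjusted p = 0.00474). Socs3, Trex1 and Rnaseh2c were higher in OC+SM than in YC, at 0.38, 0.51 and 0.25, against 11.5% of all genes. Nlrx1, a mitochondrial protein reported to dampen Mavs signalling, averaged 5.40 ± 1.51 CPM in OC+SM, 9.41 ± 1.58 CPM in OC and 7.21 ± 0.982 CPM in YC (SD, n = 6 each). It was the 1 gene of these lists called in OC+SM over OC (log2 -0.81 ± 0.16, edgeR adjusted p = 0.0174), where 0.489% of all genes were lower. Pathway and marker genes outside the members were not followed under the alternatives, so it is not known how far their calls depend on the setting.

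Marker lists of other cells were read beside these genes, and some of their members differed with age. The counts called in these lists stand beside 5.25% of all genes higher and 6.03% lower in OC than in YC. Of 5 pan-leukocyte markers none was called in OC over YC by edgeR, with 3 at an unadjusted p under 0.05, and all 5 were positive with a median log2 of 0.43; their summed level was 31.5 to 47.6 CPM in OC+SM, 40.9 to 54.0 in OC and 31.0 to 51.9 in YC. T and NK cell markers summed to 8.84 to 11.7 CPM in OC+SM, 7.33 to 13.8 in OC and 4.82 to 9.59 in YC, with Trbc2 higher in OC and 7 of 11, Cd3d, Cd3e and Cd3g among them, below 1 CPM. B and plasma cell markers summed to 6.31 to 21.5, 8.65 to 15.8 and 2.63 to 8.95 CPM in OC+SM, OC and YC. Of the 4 tested, Igkc and Jchain were higher in OC. Ms4a1 (-0.02) and Mzb1 (-0.25) had negative log2 fold changes in OC over YC and were not called. Of the 8 listed, 7 were below 1 CPM. In OC, Igkc averaged 8.56 CPM within a mean sum of 12.4 CPM. Macrophage markers summed to 369 to 580, 339 to 460 and 244 to 502 CPM in OC+SM, OC and YC, with 1 of 10, C1qa, higher in OC.

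YC 3 held the largest macrophage sum (502 CPM) and pan-leukocyte sum (51.9 CPM) of its group. OC+SM 6 had the largest macrophage sum of all libraries (580 CPM). Each of these ovaries was the lowest of its group for 20 members, more than any other ovary of that group. They stood apart in other lists too. OC+SM 6 had the lowest endothelial sum (167 CPM) and the highest surface and oviduct epithelium sum (73.0 CPM) of OC+SM. YC 3 had the lowest luteal and granulosa sum (8600 CPM) and the highest theca and stroma sum (1100 CPM) of YC. OC 6 had the largest pan-leukocyte sum of OC, 54.0 CPM, and the largest T and NK cell sum, 13.8 CPM, whereas OC+SM 4 had the lowest macrophage sum (369 CPM) and the lowest T and NK cell sum (8.84 CPM) of OC+SM. Dendritic cell markers (0 of 5 tested called in OC over YC, 2 at an unadjusted p under 0.05) summed to 34.9 to 38.2, 33.5 to 38.7 and 34.2 to 42.2 CPM in OC+SM, OC and YC. Most of that sum was Zbtb46, at 27.9, 28.2 and 27.8 CPM on average. Of the 5 tested, 3 had positive and 2 negative log2 fold changes in OC over YC. Neutrophil markers summed to 1.73 to 19.4, 3.03 to 4.75 and 2.67 to 11.6 CPM in OC+SM, OC and YC, with 1 count of Ly6g in all libraries together.

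Among cells of the ovary itself, all 5 oocyte markers were lower in OC than in YC (median log2 -1.89; 24.0 to 44.4 CPM summed in OC and 79.1 to 132 in YC). Of 5 theca and stroma markers Insl3 and Dcn were lower, of 6 luteal and granulosa markers Cyp11a1 and Hsd3b1 were higher and Inha lower, and of 5 endothelial markers Kdr and Emcn were higher. Surface and oviduct epithelium had Lrrn4 higher and Krt8 lower among 5 tested markers. No marker of these lists was at 0 in all libraries. The part of these shifts in the levels of the interferon-stimulated genes was not tested.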

How the data were processed

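Ovary RNA of 18 mice was sequenced as QuantSeq 3′ tags, per the labels' protocols. Tools were RSEM 1.3.3, STAR 2.7.9a and FastQC 1.9, on GRCm39, per the submitters' processing notes. The authors deposited RSEM expected counts for 55416 genes per library, of which 87.4% lay within 0.005 of a whole number, with TPM and FPKM values beside them, per the file headers; FPKM was not used. RSEM splits reads between matching genes, and no source used here states the annotation or the strand setting. Members with close copies (Ifit3 and Ifit3b, Tgtp2, the Gbp, Irgm, Oas and Ifi27 families) and overlapping genes are therefore uncertain.

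Symbols for 52083 identifiers came from a mouse gene table. Expected counts were rounded, filtered with filterByExpr, scaled by TMM and fitted over all 18 libraries without covariates (R 4.3.3, edgeR 4.0.16, glmQLFit robust and glmQLFTest), with Benjamini-Hochberg adjustment over 16959 genes and calls at an adjusted p under 0.05. The fit was tested on simulated data. Each library is 1 mouse, so p-values measure the spread between mice, and library totals (9049194 to 20354251 expected counts) set the precision of low genes; floors cover counting error only. Alternatives were DESeq2 1.42.0 (test and size factors), limma 3.58.1 on log2(TPM + 1) and log2(TPM + 0.1), other filters, 12 libraries only, thinning, a replicate block and leaving out each library.

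Detailed values are given for the 12 members with the smallest p in OC against YC, the 6 with the smallest p in OC+SM against OC and the most abundant member of each role; other members by fold change, and in part by mean or range. Promoters shown are the first 4 of those 12 with the response element core and the first 2 without. Members and lists were chosen with earlier results of these data known. Sequences and gene order are RefSeq's on GRCm38.p6 and were not combined with coordinates of the deposited tables.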

Additional observations from a re-analysis of the deposited data

Results flagged for a closer look

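Dixon's test at the 95% level compared the highest or lowest ovary of each group of 6 with the others, for 44 members in 3 groups. It marked 12 of 132 groups, where chance marks about 1 in 20, and members that vary together are marked together. OC+SM 4 stood apart with high levels of Igtp (13.3 CPM, others 6.63 to 8.29), Stat2 (34.2 CPM, others 23.6 to 24.6) and Lgals3bp (36.4 CPM, others 23.4 to 27.2). OC+SM 6 had 57.3 CPM of Gbp2, against 30.2 to 36.7 in the others. OC 6 had 13.4 CPM of Igtp, against 6.94 to 8.56, and 36.4 CPM of Parp14, against 23.7 to 27.3. YC 2 was high for Herc6 (31.0 CPM, others 20.2 to 24.0), Bst2 (40.0 CPM, others 24.5 to 30.2) and Irf1 (43.5 CPM, others 36.6 to 38.9). YC 3 was high for Samhd1 (68.1 CPM, others 47.2 to 54.6) and low for Ly6e (70.2 CPM, others 139 to 169). YC 5 was low for Tgtp2, with 2.67 CPM against 4.19 to 4.75.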

How the results depend on the processing

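Over 21 alternatives, members higher in OC than in YC numbered 11 to 22 on leaving out 1 library and 15 to 23 otherwise, and 11 of the 16 were called in all 21; Ly6e, Zbp1, Oasl2, Ifit3 and Tgtp2 lost the call in at least 1. In OC+SM over YC the number was 11 to 20 and 12 to 17, and 10 of 16 were called in all 21; Irf9, Ly6e, Herc6, Rtp4, Ifit3 and Sp100 were not, Sp100 only under limma (adjusted p = 0.18 and 0.182). In OC+SM over OC, DESeq2 called 1 higher and 1 lower, and leaving out 1 library gave 0 to 1 lower (1 without OC+SM 4). Over all genes that comparison called 176, against 663 in DESeq2, 45 in a fit of its 12 libraries, and 32 (without OC+SM 3) to 593 (without OC+SM 4). Titles number mice alike in each group, but same-numbered mice did not deviate together (correlations -0.118 to 0.074); with the replicate block 17 members were higher in OC and in OC+SM than in YC, and 0 were called in OC+SM over OC. Under the block Ifit3 and Tgtp2 lost the call in OC over YC while Irf7, Stat2 and Ifi27 gained it, and in OC+SM over YC Ifit3 lost it while Oasl2 and Ifi27 gained it, among members followed there. Signs were followed for all 44 members in OC over YC, and for the 21 and 26 members named or called in OC+SM over OC and OC+SM over YC; those that turned were not called in that comparison. In OC over YC, limma with pseudocounts of 1 and 0.1 gave Mx2 -0.01 and -0.06, Usp18 -0.04 and -0.05, and Ifit2 0.03 and 0.07; thinned libraries gave Ifit2 0.09 and Irgm1 -0.04. In OC+SM over OC, thinning gave Ifit1 -0.05 and Igtp 0.05. Leaving out 1 library, OC over YC ran from -0.14 to 0.23 for Mx2, -0.08 to 0.08 for Eif2ak2, -0.09 to 0.21 for Usp18, -0.14 to 0.04 for Ifit2 and -0.05 to 0.20 for Ifi27l2a. OC+SM over OC ran from -0.01 to 0.03 for Trim25, -0.03 to 0.09 for Irf1, -0.19 to 0.03 for Rsad2, -0.08 to 0.01 for Ly6e, -0.18 to 0.02 for Eif2ak2, -0.03 to 0.20 for Ifit1, -0.10 to 0.07 for Gbp7, -0.09 to 0.01 for Ifi27 and -0.21 to 0.13 for Igtp. OC+SM over YC ran from -0.10 to 0.01 for Samhd1 and -0.11 to 0.17 for Ifit3b. The cause was not tested. Member medians stayed between 0.33 and 0.53, -0.20 and -0.06, and 0.22 and 0.39 in OC over YC, OC+SM over OC and OC+SM over YC. Depth limits members near 1 CPM, such as Zbp1, Oas1a, Oasl1 and Ifit3b.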
